A study of Mus musculus with 4 samples.

Results

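The regions described here held an ATAC-seq peak in 1 of 4 libraries of embryonic mouse lung and in none of the other 3. Peaks of the 4 deposited lists were merged where they overlapped or adjoined on chromosomes 1 to 19. A region was kept when its peaks came only from the library whose peak names carry the word Frais, French for fresh, and when at least 1 of them had a −log10 q of 5 or more. This chose 19596 of 298755 merged regions, here called replicate 1-only regions. The members were chosen by the peak calls of all 4 libraries and the q values of replicate 1. The presence, fold, q and width of these peaks are therefore descriptions.

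ATAC-seq uses the Tn5 transposase to insert sequencing adapters where DNA is accessible. The samples were 4 libraries of lung from wild-type (wt) embryos at E15.5, with no treatment or other allele named, and they formed 1 group with replicate numbers 1 to 4. The labels name no strain or sex and do not say how many embryos went into a library. The peaks of replicate 1 were named Frais and those of replicates 2, 3 and 4 Frozen, whereas the protocol given for every library has lungs frozen in liquid nitrogen before nuclei were isolated. Whether replicate 1 was prepared from fresh tissue could therefore not be settled, and the library is called by its number.

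A peak at a gene start usually marks a promoter, and many such promoters, above all those rich in CpG dinucleotides, are open in most cell types. Sites far from genes and inside long introns are often enhancers, which are open in fewer cell types and bind tissue-specific factors. The lung at this stage holds branching epithelium, mesenchyme, vessels, mesothelium, cartilage, nerves and blood cells. In whole tissue, a site open in more cells and a site more open in each cell cannot be told apart.

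Replicate 1 stood apart from the other libraries before any region was chosen. It had the fewest peaks on the autosomes, 131449 against 180007 to 208926, and the highest median fold enrichment, 8.99 against 3.73 to 3.90. Fold is the authors' ratio of the summit pileup to a background. Every fold under 15 was a whole multiple of a single step in each library, so those peaks of a library shared a single background. Background pileups recovered from the steps between fold values lay between 2.11, in replicate 1, and 2.62. Read totals were not used here, and the part of depth or library quality in the results below was not tested. Peaks at starts were looked up for lung genes: all 30 regulators and signals of lung mesenchyme on a gene list had one in each of the 4 libraries. So did 28 of 30 of lung epithelium, Nkx2-1, Foxa2, Sox9 and Shh among them, and Sftpc and Sftpb, which encode surfactant proteins. Trp63, a basal cell factor, Sftpd, a further surfactant gene, and Scgb3a2, a secretory cell gene, had none in any library. Many genes of other organs had a start peak too, 12 to 17 of 20 of heart muscle and 12 to 15 of 18 of oesophagus and stomach. Start peaks were common at large, as 13522 of 20085 coding promoters overlapped a region of all 4 libraries. These counts therefore cannot check the tissue label.

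Of 919 autosomal miRNA hairpins in the RefSeq table, 5 (0.544%) overlapped a replicate 1-only region and 293 (31.9%) a region open in all 4 libraries. Regions of all 4 libraries with a replicate 1 −log10 q of 5 or more numbered 61813, with a median width of 1489 bp. Replicate 1-only regions numbered 19596, with a median of 284 bp, so the hairpin counts do not compare density. Mature sequences of the 5 hairpins are printed because the hairpins overlap replicate 1-only regions. Sequences are from RefSeq on GRCm38.p6, the assembly that mm10 represents, 5′ to 3′, with the seed, bases 2 to 8, in capitals.
mmu-miR-30a-5p (chr1:23272274-23272295, plus strand): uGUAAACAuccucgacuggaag
mmu-miR-30a-3p (chr1:23272315-23272336, plus strand): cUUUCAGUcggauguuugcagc
mmu-miR-344c-5p (chr7:61837363-61837385, minus strand): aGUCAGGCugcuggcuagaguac
mmu-miR-344c-3p (chr7:61837323-61837345, minus strand): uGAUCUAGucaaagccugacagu
mmu-miR-344d-1-5p (chr7:61683166-61683189, minus strand): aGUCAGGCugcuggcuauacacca
mmu-miR-344d-3p (chr7:61683127-61683148, minus strand): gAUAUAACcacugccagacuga
mmu-miR-3966 (chr10:97423493-97423513, plus strand): aGCUGCCAgcuguagaacugu
mmu-miR-1960 (chr5:30170751-30170772, plus strand): cCAGUGCUguuagaagagggcu

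The Mir30a hairpin, source of a miRNA of the broadly expressed miR-30 family, lay inside a region of 374 bp with a fold of 15.4. Mir344c lay in a region of the same fold, 350 bp wide, and Mir344d-1 in one of 411 bp with a fold of 10.9. The 5p products of the latter pair share the seed GUCAGGC, and their regions lie on the same stretch of chromosome 7. The regions at Mir3966 and Mir1960 overlapped the hairpins only in part and were weaker, with folds of 5.46 and 4.50, the second being the lowest fold among all replicate 1-only regions.

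Replicate 1-only regions rarely lay at gene starts, and 4 of the starts that did hold one are shown next for their base composition. Each line gives the 200 bases before a RefSeq start on GRCm38.p6, 5′ to 3′ on the gene's strand. Capitals mark a match on either strand to TGANTCA, the AP-1 motif, in Htr2b and to GGAATG, the TEAD motif, in Esr1 and Kcnk2. Stat5b held no match to either motif, so its line has no capitals.
Htr2b (chr1:86111981-86112180, minus strand): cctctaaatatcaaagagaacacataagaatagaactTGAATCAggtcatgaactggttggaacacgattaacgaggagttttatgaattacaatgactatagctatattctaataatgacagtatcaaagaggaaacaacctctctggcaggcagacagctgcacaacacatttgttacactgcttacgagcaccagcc
Stat5b (chr11:100822571-100822770, minus strand): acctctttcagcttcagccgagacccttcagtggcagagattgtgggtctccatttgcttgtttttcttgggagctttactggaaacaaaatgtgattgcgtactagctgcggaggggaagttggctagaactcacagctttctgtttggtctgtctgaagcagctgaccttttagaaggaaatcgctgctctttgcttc
Esr1 (chr10:4709958-4710157, plus strand): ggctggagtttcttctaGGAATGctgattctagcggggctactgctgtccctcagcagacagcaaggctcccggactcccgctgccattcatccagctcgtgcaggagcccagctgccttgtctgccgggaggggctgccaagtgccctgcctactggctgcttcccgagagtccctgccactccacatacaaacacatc
Kcnk2 (chr1:189402274-189402473, minus strand): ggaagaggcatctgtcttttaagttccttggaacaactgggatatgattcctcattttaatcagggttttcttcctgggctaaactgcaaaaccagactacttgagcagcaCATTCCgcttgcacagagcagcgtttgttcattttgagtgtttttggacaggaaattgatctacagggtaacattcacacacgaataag

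Htr2b encodes a serotonin receptor, and the region at its start, at chr1:86111728-86112172, had a fold of 14.1 and lay 14.6 kb from the nearest Frozen peak. Stat5b encodes a transcription factor activated by cytokine receptors, and its start lay inside a region with a fold of 12.2. Esr1, the estrogen receptor alpha gene, and Kcnk2, a potassium channel gene, had folds of 8.35 and 8.03 at the starts shown. Esr1 and Kcnk2 were chosen after their values were seen. Each of Stat5b, Esr1 and Kcnk2 has other starts in the table, and 1 start of Stat5b and 3 of Kcnk2 held a region of all 4 libraries.

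Windows from 250 bases before to 50 bases after a start overlapped a replicate 1-only region at 71 coding promoters of 68 genes. Their median ratio of observed to expected CpG was 0.270 (quartiles 0.179 and 0.385), against 0.586 over all 20085 coding promoters in the table and 0.752 over the 13522 that overlapped a region of all 4 libraries. The GC box GGGCGG occurred on either strand in 8 of 71 (11.3%; exact Clopper-Pearson 95% interval 4.99 to 21.0%), against 47.0% of all coding promoters and 65.0% of those open in all 4 libraries. These starts were thus poor in CpG and in GC boxes by the side of promoters at large. The rule leaves out regions with a Frozen peak, whereas 13522 of the 20085 coding promoters overlapped a region of all 4 libraries. The contrast is thus in part set by the rule, and promoters not open in all 4 libraries were not compared as a set. TATAAA occurred in 15.49%, 12.7% and 6.40% of the same 3 sets and TGANTCA in 11.3%, 7.06% and 4.68%, with intervals for the first set, 7.996 to 26.0% and 4.99 to 21.0%, that hold the share of all promoters. The CRE motif TGACGTCA occurred in 0 of the 71 and in 2.30% of all, and the forkhead motif GTAAACA in 2 and in 3.04%. The E-box CANNTG occurred in 81.7% of the 71, against 68.7% of all. GGAATG was found in 19.7% against 13.4% and CCAAT in 33.8% against 38.1%. A match is a description of letters in these windows. Intervals here and below cover counting error only.

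Among regions in which the best peak of replicate 1 reached a −log10 q of 5, 19596 of 102709 (19.1%) had no peak of a Frozen library. This count is fixed by the rule. The same rule applied to replicates 2, 3 and 4 in turn gave 1717 of 74615 regions (2.3%), 3456 of 80939 (4.27%) and 2391 of 71166 (3.36%). Replicate 1 thus had the most single-library regions and replicate 3 the next most. With 1 library against 3 in 1 labelled group there is no test between conditions, and a permutation over 4 libraries cannot give a p under 0.25. The values that follow are described by their counts and set beside those of the other libraries.

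Most regions of replicate 1 were also found in the Frozen libraries: 61813 (60.2%) held a peak of all 3, 10959 of 2 and 10341 of 1. A missing peak means that none was called in that list, not that no signal was there. The lowest fold that reached the q minimum was 4.50 in replicate 1 and 4.14 to 4.36 in the others.

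Few replicate 1-only regions lay at gene starts. Windows of 1 kb either side of a coding gene start held 200 of them (1.02%; interval 0.885 to 1.17%). Both gene ends counted as starts for the 4208 coding genes without an entry in the promoter table, and annotated starts alone, a setting chosen after seeing the data, gave 0.663%. Bodies of coding genes held 8536 (43.6%), and 10860 (55.4%; interval 54.7 to 56.1%) lay outside coding genes. Over all replicate 1 regions of the same q minimum 14.1% lay at starts, and over all 298755 merged regions 6.90%. Among replicate 1 regions that held a peak of all 3 Frozen libraries, 22.4% lay at starts, 40.6% in gene bodies and 37.0% outside. The median width of these was 1489 bp, against 284 bp for replicate 1-only regions. A wider region meets a start window more often, and the part of width in these shares was not tested. Single-library regions of replicates 2, 3 and 4 lay at starts in 2.68%, 3.10% and 2.43% of cases and outside coding genes in 47.8%, 40.4% and 47.1%. Regions seen in replicate 1 alone were therefore placed farther from starts than those seen in another library alone, and the shares at starts and outside coding genes shifted step by step with the number of Frozen libraries holding a peak. Exons and introns were not separated here.

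**Figure D1:**
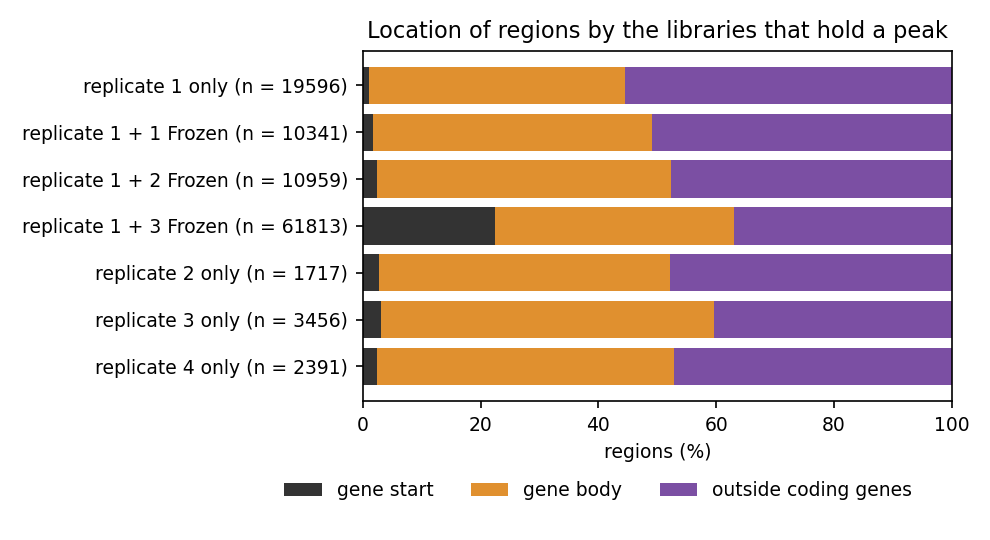
Share of regions (%, horizontal axis) at coding gene starts, in coding gene bodies and outside coding genes, for replicate 1 regions by the number of Frozen libraries with a peak and for single-library regions of replicates 2 to 4 (number of regions in brackets). The start share is 1.02% in replicate 1-only regions and 22.4% where all 3 Frozen libraries have a peak.

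The median distance from a replicate 1-only region to the nearest coding gene start was 79.0 kb. It was 22.6, 16.3 and 22.0 kb for the regions of replicates 2, 3 and 4 alone, and 18.7 kb for replicate 1 regions with peaks of all 3 Frozen libraries. More than 100 kb from any start lay 43.6% of replicate 1-only regions, against 12.3 to 16.9% of the single-library regions of the other 3. The distances of replicate 1-only regions were thus longer in both the middle and the tail.

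The share of replicate 1 regions without a Frozen peak rose with distance. It was 1.38% within 1 kb of a start, 12.1% from 1 to 10 kb, 16.8% from 10 to 50 kb and 22.5% from 50 to 100 kb. Farther out it was 32.4% from 100 to 500 kb and 51.9% (1400 of 2695 regions; interval 50.04 to 53.8%) beyond 500 kb. In replicates 2, 3 and 4 the single-library share lay between 0.317% and 6.81% over the same bins. It was lowest within 1 kb in each of them and stayed between 2.11% and 5.90% beyond 10 kb.

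**Figure D2:**
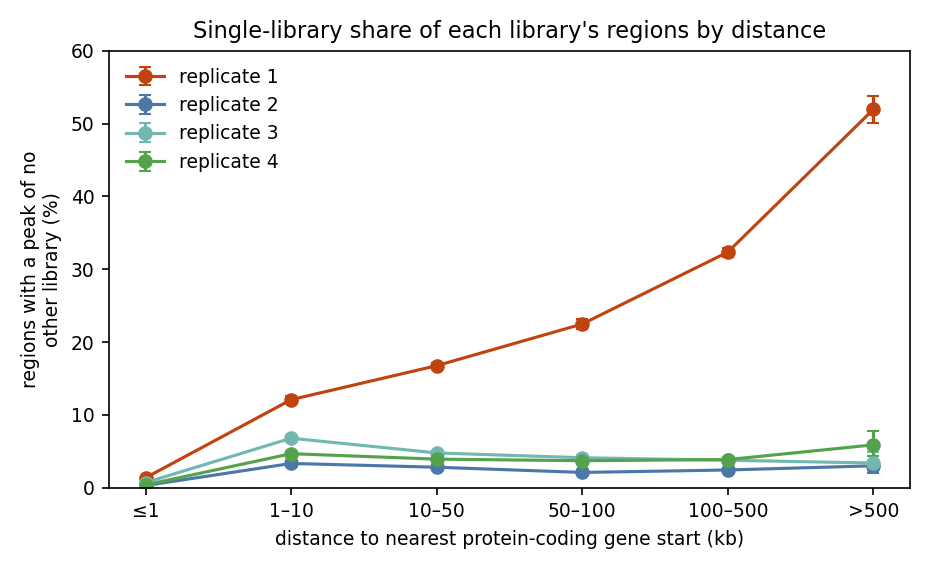
Share of each library's regions with no peak of the other 3 libraries (%, vertical axis) by distance to the nearest coding gene start (kb, horizontal axis); bars are exact 95% intervals. Replicate 1 climbs from 1.38% to 51.9%, and the other 3 stay at or under 6.81%.

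The rise with distance was also seen within ranges of fold. For regions whose replicate 1 fold was 4 to 8, the share without a Frozen peak went from 11.3% within 1 kb to 75.3% beyond 500 kb. For folds of 8 to 15 it went from 2.401% to 53.2%, and for folds of 15 or more from 0.0088% (1 of 11361 regions) to 9.37% (65 of 694). The range of 15 or more has no upper limit, so height was not held equal in it. Strong peaks were shared far more often than weak ones, yet within each range of fold the distant ones were shared least.

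Location gave the same order within narrower ranges of fold. At a fold of 4 to 6, 15.3% of start regions, 42.1% of gene body regions and 50.4% of regions outside coding genes had no Frozen peak. At 10 to 15 the shares were 1.22%, 9.77% and 14.8%. No region at a start with a fold of 20 or more was replicate 1-only, 0 of 1425 from 20 to 30 and 0 of 9110 above, which allows shares of up to 0.259% and 0.0405% by the exact intervals.

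**Figure D3:**
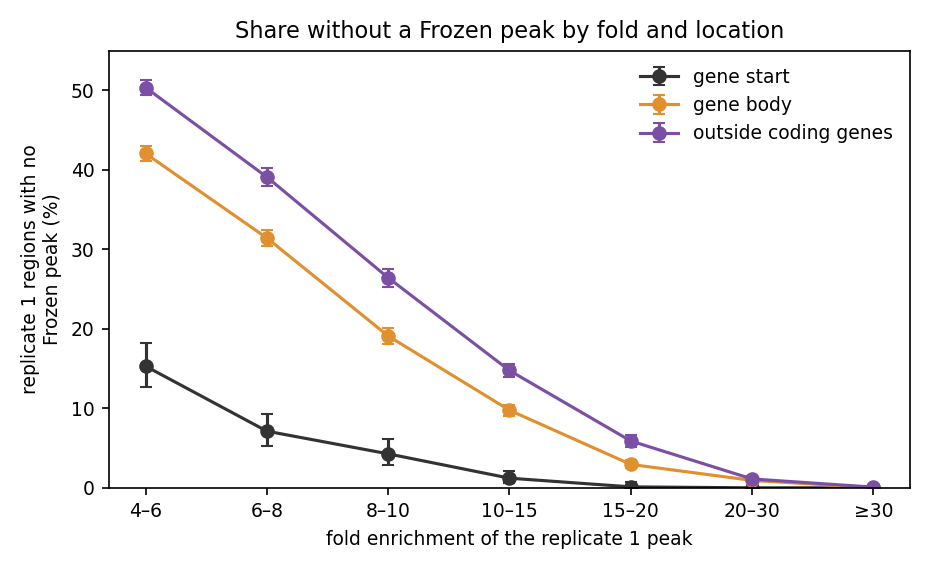
Share of replicate 1 regions without a Frozen peak (%, vertical axis) by fold enrichment of the best replicate 1 peak (horizontal axis) and location; bars are exact 95% intervals. In the bands up to 15 to 20 the start regions lie lowest and the regions outside coding genes highest, from 15.3% and 50.4% at a fold of 4 to 6.

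Most replicate 1-only regions were short and low. The median width was 284 bp (quartiles 219 and 381, longest 1700), the median fold 6.10 (quartiles 5.14 and 7.79) and the median −log10 q 9.92. A median fold of 6.10 corresponds to a summit pileup of 18. A fold of 10 or more was reached by 2169 regions (11.1%), of 20 or more by 85, of 25 or more by 20 and of 30 or more by 6. At equal fold their peaks were also narrower than peaks of replicate 1 in shared regions. The medians were 240.5 against 281 bp at a fold of 4 to 6, 416 against 485 bp at 10 to 15 and 562 against 704 bp at 20 to 30. A wider peak is more likely to overlap a Frozen peak, so part of this gap can follow from the rule. At the q minimum, 2145 regions sat on the lowest value inside (−log10 q 5.50, fold 4.50) and 2048 on the highest value outside (4.70, fold 4.18). In genome order the first inside were near St18, Pcmtd1, Sntg1, Cpa6 and A830018L16Rik, and the first outside near Tram1, Eya1, Kcnb2 and Rdh10. In all, 6782 single-library regions of replicate 1 fell under the minimum.

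Replicate 1-only regions were often far from any Frozen peak. The median distance to the nearest Frozen peak was 4.09 kb. A Frozen peak lay within 1 kb of 23.8% of them, more than 10 kb away from 30.5% and more than 100 kb away from 350. Single-library regions of replicates 2, 3 and 4 lay at medians of 0.768, 0.638 and 0.748 kb from the nearest peak of another library, and 56.4 to 63.4% of them had one within 1 kb. The regions also lay spread out: the nearest other replicate 1-only region was at a median of 27.1 kb, with 25.3% of the regions having one within 10 kb. A region open in all 4 libraries lay at a median of 16.2 kb.

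All 19 autosomes held replicate 1-only regions. Their share of replicate 1 regions ran from 14.4% on chromosome 11 (interval 13.6 to 15.3%) to 23.6% on chromosome 3 (22.5 to 24.7%), with 15.4% on chromosome 7 and 15.49% on chromosome 17. Chromosomes 7, 11 and 17 are rich in genes, with 14.0, 13.2 and 11.2 coding genes per Mb, against 6.28 on chromosome 3. Chromosome 19, with 12.2 per Mb, had a share of 19.3%, close to the 19.1% over all autosomes. Over the 19 chromosomes the share and gene density had a Spearman correlation of −0.847 and a Pearson r of −0.826. This describes chromosomes of 1 library, which share its depth and differ in base composition.

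The 4 replicate 1-only regions with the highest folds, 57.5 to 69.7, were 160 to 253 bp wide and lay outside coding genes. Their nearest coding genes were Cntnap5b at 2137 kb, Rpia at 1249 kb, Tra2a at 7.31 kb and Eea1 at 32.1 kb. The highest, at chr1:102628095-102628335 (mm10), reached a summit pileup of 216 and lay 410.0 kb from the nearest Frozen peak. The other 16 of the top 20 had folds of 25.1 to 30.8 and widths of 250 to 803 bp. No list of artefact-prone regions was applied here.

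The strongest of those 16 lay inside Nrg1, which encodes a ligand of ERBB receptors. The region spans chr8:32088977-32089779, is 803 bp wide, had a fold of 30.8 and lay 78.003 kb from the nearest Frozen peak. Others inside genes were at Bmpr1b, a BMP receptor gene (28.9), Pcdh9, a protocadherin gene (28.9), Hpse2, encoding heparanase-2 (27.6), Fer1l6 (27.3), Dgki, a diacylglycerol kinase gene (27.0), and Eif4e3 (25.1). The region near Fstl4, with a fold of 30.5, lay 148.4 kb outside that gene and 0.251 kb from a Frozen peak. The remaining 8 lay outside genes, at 3.33 to 417.4 kb from the nearest, among them regions near Pdcd1, Gm46305, Tmem132c, Vmn2r6, Peg10, Hlx and Pmfbp1. Thus 7 of the top 20 regions lay inside coding genes and 13 outside. Frozen peaks were also close to the regions at Bmpr1b (0.575 kb), Dgki (0.599), Pdcd1 (0.631), Tmem132c (0.105) and Pmfbp1 (0.257). Apart from these and the region near Fstl4, the top 20 lay 1.03 kb or more from a Frozen peak.

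Near genes, the background is the share over all replicate 1 regions within 100 kb of a coding gene, of which 14343 of 88820 (16.1%) had no Frozen peak. Farther than 100 kb from every coding gene the share was 5253 of 13889 (37.8%). Of 20665 autosomal coding genes, 12525 (60.6%) had at least 1 replicate 1-only region within 100 kb, with a median of 1. A region near several genes counted for each. Long genes collect more: 46.2% of genes shorter than 10 kb had at least 1, and 98.6% of genes of 500 kb or more.

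The genes with the most replicate 1-only regions within 100 kb were long, the first 15 spanning 431 to 1612 kb. Auts2, encoding a nuclear regulator studied in neural development, had 34 among 67 replicate 1 regions, 32 of them inside its 1106 kb at chr5:131437333-132543220. Replicates 2, 3 and 4 had 18, 17 and 16 regions of the same q there, and 0, 0 and 1 of their own alone. Sema3a, which encodes a secreted guidance cue that binds neuropilin, had 28 of 47, against 12, 8 and 7 regions in the other libraries. Its strongest, at chr5:13255268-13255758 inside the gene, had a fold of 21.8. More than 50% of the replicate 1 regions at both genes thus lacked a Frozen peak.

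Lrmda had 30 of 121 and Ptprm, a receptor phosphatase in cell adhesion, 27 of 78. Pard3b, related to the polarity protein PAR-3, had 26 of 59, Arhgap26, a GTPase-activating protein, 26 of 117, and Asic2, an acid-sensing ion channel, 25 of 81. Ccser1 had 24 of 38, the highest share (63.2%) among the first 15 genes. With 23 each followed Cfap299, Adamtsl1, a secreted relative of ADAMTS proteases, Rbms3, an RNA-binding protein, and Nrxn3, a presynaptic adhesion protein. Hmcn1, encoding the matrix protein hemicentin-1, Hpse2 and Arhgap15 had 22 each. The shares among these 15 ran from 22.2% at Arhgap26 to 63.2%, all above 16.1%, a direction to which the choice by count contributes.

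Nrg1, named above for its strongest region, had 21 of 32 (65.6%), 18 of them inside the gene. The other libraries had 8, 3 and 3 regions there and none of their own alone. Over all genes, 264 had 10 or more replicate 1-only regions, while 2, 0 and 0 genes had that many single-library regions of replicates 2, 3 and 4. Among genes with at least 10 regions of a library, replicate 1 alone supplied 50% or more at 128 of 13987. The corresponding counts in replicates 2, 3 and 4 were 0 of 12227, 0 of 12758 and 0 of 11928. With a −log10 q minimum of 10, Auts2 had 20 regions and Nrg1 10.

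**Figure D4:**
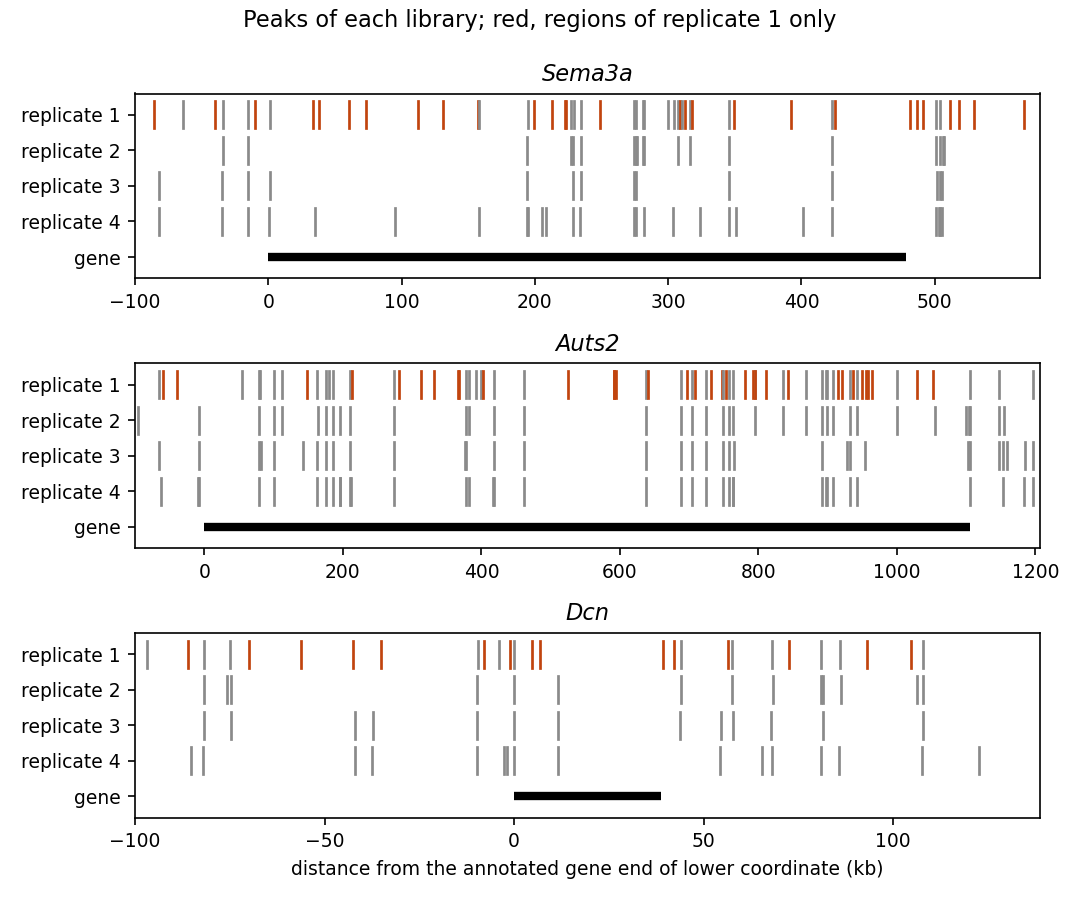
Peaks of each library at Sema3a, Auts2 and Dcn, by distance from the gene end of lower coordinate (kb, horizontal axis); red marks are replicate 1-only regions, grey marks all other peaks and the black bar is the gene. Sema3a holds 28 red regions, Auts2 34 and Dcn 15 within 100 kb of the gene.

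Genes of extracellular matrix had a mean of 1.52 replicate 1-only regions per 100 kb, against 0.551 over all coding genes (medians 0.984 and 0.450). The mesothelium and lung mesenchyme lists had means of 1.20 and 1.09. At least 1 such region lay near 19 of the 24 matrix genes (79.2%), against 60.6% of all coding genes. As a share of the replicate 1 regions near the matrix list, however, 86 of 546 (15.8%, interval 12.8 to 19.1%) were replicate 1-only, close to the background. Dcn and Lum led the list, neighbouring genes on chromosome 10 that encode the collagen-binding proteoglycans decorin and lumican. Dcn had 15 of 25, against 5, 5 and 5 regions in the other libraries, and Lum 11 of 22, against 6, 5 and 6. Both counts include the region with the highest fold there, 23.1, at chr10:97484001-97484557 inside Dcn. Fbn1, encoding fibrillin-1, came next with 11 of 46. Kera and Epyc, further small proteoglycan genes beside Lum, had 7 of 17 and 4 of 14 and were looked up after these values were seen. Many of these regions are shared among the neighbours.

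Regulators and signals of lung mesenchyme had at least 1 replicate 1-only region at 22 of 30 genes (73.3%), against 60.6% of all coding genes. Near them 89 of 566 regions (15.7%, interval 12.8 to 19.0%) were replicate 1-only. Meis1, a TALE homeobox gene, had 12 of 29. The other libraries had 15, 14 and 11 regions there, with 0, 1 and 1 of their own alone. The mesothelium list had 35 of 206 (17.0%; interval 12.1 to 22.8%), led by Tcf21, a bHLH factor of mesenchyme, with 7 of 22, and Wt1, a zinc finger factor of mesothelium, with 6 of 18. The shares of both lists held the background in their intervals.

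Regulators and signals of lung epithelium had 61 of 553 (11.0%; interval 8.54 to 13.9%), and epithelial products and junctions 15 of 292 (5.14%; interval 2.90 to 8.33%). Foxp1, a forkhead repressor of lung epithelium, had 20 of 66, 15 inside the gene, and Trp63, the basal cell factor, 5 of 14. Foxp1 had 6 with a −log10 q minimum of 10 and 13 when peaks up to 1000 bp apart were merged. Lamp3 and Hopx, markers of alveolar type II and type I cells, had 3 of 7 and 3 of 22. Both epithelial lists thus lay under 16.1%, and 28 of 30 and 18 of 20 of their genes had a peak at a start in all 4 libraries.

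The endothelial list had 60 of 496 (12.1%; interval 9.36 to 15.3%), with Kdr, a VEGF receptor gene, at 9 of 24 and Ets1 at 8 of 50. At Kdr the other libraries had 6, 9 and 3 regions and none of their own alone. The list of smooth muscle and pericytes had 34 of 430 (7.91%; interval 5.54 to 10.9%). Its first gene was Rgs5, a pericyte marker, with 8 of 15 and a best fold of 23.1, and its second Synpo2 with 6 of 32. When peaks up to 1000 bp apart were merged, Rgs5 had 4. A gene can thus hold many such regions within a list whose share is low.

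Lists for cell types at the edges of the tissue or outside it were also counted, because a dissected lung can carry other tissue. The share was 16.3% for liver products (34 of 209), 12.6% for cartilage (44 of 350), 11.5% for myeloid and other blood cells (45 of 391) and 11.1% for neural crest, neurons and glia (27 of 244). It was 9.62% for oesophagus and stomach, 8.71% for skeletal muscle, 7.69% for heart muscle, 7.32% for erythroid cells and 7.05% for T cells and thymus. None of these 9 lists lay above 16.1% by more than its interval. Peaks at their starts were counted as well. Of 19 neural genes, 12 had one in replicate 1 and 16 to 18 in the others, and of 20 heart genes 12 and 16 to 17. For skeletal muscle the counts were 9 and 11 to 14 of 20, for myeloid and other blood cells 11 and 12 to 16 of 22, and for oesophagus and stomach 12 and 14 to 15 of 18. Cartilage had 12 and 13 to 15 of 17, T cells and thymus 8 and 8 to 11 of 20, and liver 8 and 8 to 9 of 20. Erythroid genes had 14 of 17 in replicate 1 and 11 to 13 in the others. Replicate 1 thus had the fewest start peaks, or as few as another library, in 8 of the 9 lists and the most in the erythroid list. It also had the fewest peaks on the autosomes, 131449 against 180007 to 208926. Of 23 housekeeping genes, 22 had a start peak in replicate 1 and 23 in each of the others. No share over all coding genes is set beside these counts, so they are not read as differences in tissue. The part of cell composition in the results was not tested.

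Named members of these lists were Afp, the fetal serum protein gene, with 7 of 14, and Alb with 4 of 10, which lies next to it. In cartilage Sox6 and Sox5, partners of Sox9, had 12 of 59 and 11 of 57. Gfra1, a GDNF co-receptor gene, had 10 of 25, against 8, 10 and 10 in the other libraries, and Elavl4 had 4 of 9. Ptprc, which encodes CD45, had 6 of 11, against 1, 1 and 2, and Itgam 5 of 12. Hbb-y, an embryonic globin gene, had 5 of 9 and Ank1 4 of 28. Small counts of this kind occurred in every list: Gata4 4 of 35, Barx1 3 of 19, Pax3 4 of 10, Chrna1 4 of 30, Ryr2 6 of 17, Pln 2 of 15, Zap70 4 of 15 and Ikzf3 3 of 20.

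Genes of response and signalling had low shares. Immediate early and stress genes had 27 of 512 (5.27%; interval 3.50 to 7.58%), with Klf4 at 4 of 10 and Myc at 3 of 10. Glucocorticoid, hypoxia and metabolic stress genes had 25 of 326 (7.67%; interval 5.02 to 11.1%), with Epas1, the HIF-2 alpha gene, at 5 of 16 and Nr3c1, the glucocorticoid receptor gene, at 4 of 32. Wnt, Notch and BMP or TGF-beta pathway genes had 68 of 906 (7.51%; interval 5.88 to 9.42%), with Bmpr1b at 8 of 28 and Tcf7l2 at 6 of 38. Housekeeping genes had the lowest share of the 20 lists, 17 of 379 (4.49%; interval 2.63 to 7.08%), with Tbp at 4 of 18 and Snrpd3 at 2 of 21. At housekeeping genes the single-library shares of replicates 2, 3 and 4 were 2.89%, 5.66% and 2.55%. Lists were not matched for distance to a start, and the part of distance in their shares was not tested. Over the 20 lists, 278 of 432 distinct autosomal genes (64.4%) had at least 1 replicate 1-only region within 100 kb. Of all coding genes 60.6% did.

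**Figure D5:**
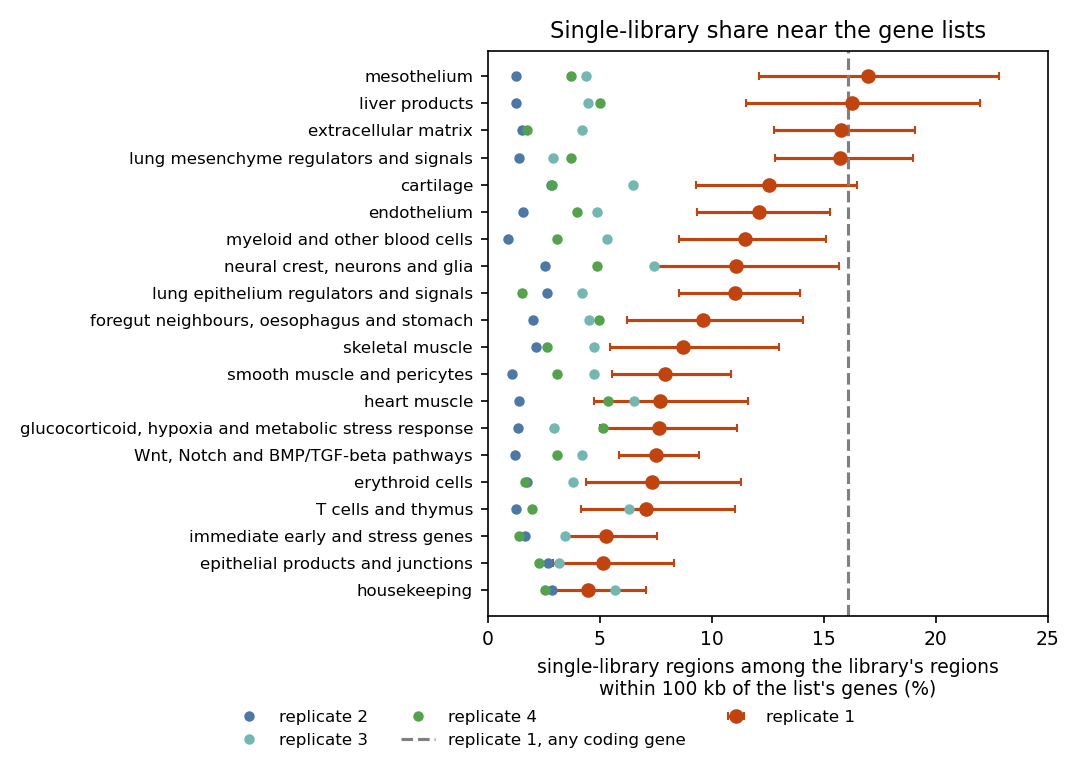
Share of a library's regions within 100 kb of the genes of each list that had no peak of the other 3 libraries (%, horizontal axis); red points with exact 95% intervals are replicate 1, smaller points replicates 2 to 4, and the dashed line is replicate 1 over all coding genes. Red points run from 4.49% at housekeeping genes to 17.0% at the mesothelium list, with the line at 16.1%.

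Gene families differed in how many of their genes had such a region within reach. Olfactory receptor genes had a replicate 1-only region within 100 kb at 320 of 1104 (29.0%) and vomeronasal receptor genes at 85 of 354 (24.01%). Of the few replicate 1 regions near them, 16.7% and 17.3% were replicate 1-only, near the background. Protocadherin genes had 43 of 141 (30.5%), led by Pcdh15 with 11 of 19, while ribosomal protein genes had 118 of 1395 (8.46%) and Zfp genes 264 of 3154 (8.37%). Families looked up after the values were seen had 69 of 233 for Slit and Robo genes (29.6%), with Slit3 at 20 of 75 and Robo1 at 20 of 54. The semaphorins had 89 of 488 (18.2%), of which Sema3a supplied 28. The ADAMTS family had 108 of 534 (20.2%), of which Adamtsl1, named above for its count, supplied 23. Ephrin receptors had 39 of 227 (17.2%), with Epha3 at 11 of 23, and collagens 105 of 866 (12.1%).

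At starts, 196 coding genes (0.948%) had a replicate 1-only region within 1 kb. For 69 of them both annotated gene ends were used because the promoter table gave no start, so the site can be the far end. Of the 196, 66 had a different start or gene end with a region of all 4 libraries, 32 of them among those 69. The strongest was at an end of Txlnb (fold 15.4), followed by Htr2b (14.1), Stat5b (12.2), Zfp612 (11.6), and Mb, the myoglobin gene, and Gm8700 (10.9 each). Lyzl1, Gcnt3 and Dcn had 10.6, the last at a gene end of which the strand was not known, and Glb1l3, Il22ra2, Myf5, Cp and Gpr171 10.3. Krt26 (9.64), Il16 and Sulf1 (9.32 each), Sgms1 (9.32), Nipal2 and Naaladl2 (8.99 each) completed the first 20. Of the 432 distinct autosomal list genes, 11 were among the 196, namely Lyve1, Pecam1, Wt1, Muc16, Sox6, Ikzf3, Lck, Myf5, Afp, Dcn and Lum. Both gene ends were used for Lyve1, Pecam1, Wt1, Ikzf3, Dcn and Lum, so the site can be the far end there. Only Muc16, Ikzf3 and Afp had a peak at a start in replicate 1 alone. Pecam1, Wt1, Sox6, Lck and Dcn had a start peak in all 4 libraries, and Lyve1, Myf5 and Lum in some Frozen libraries.

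Replicate 1-only regions occurred in 2311 of the 2391 windows of 1 Mb that held a replicate 1 region, with a median of 7. The fullest, on chromosome 10 from 68000001 to 69000000, had 35 among 89 replicate 1 regions and holds Rtkn2, Arid5b, Cabcoco1 and Tmem26. Its regions were low, with a median fold of 5.78 and a highest of 8.67, and replicates 2, 3 and 4 had 0, 2 and 1 of their own alone there. A window on chromosome 18 had 34 of 81. The window at Sema3a on chromosome 5 had 32 of 58, that from 61000001 to 62000000 on chromosome 15, which holds Myc, 31 of 61, and that from 30000001 on chromosome 17, which holds Zfand3, Btbd9, Glo1, Dnah8, Glp1r and Umodl1, 30 of 84. The window at Sema3a had the highest median fold of these 5, 7.55.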

How the data were processed

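Data were 4 deposited lists of narrow peaks from 4 ATAC-seq libraries of wild-type E15.5 mouse lung, 1 list per library. The submitters' processing notes list build mm10, MACS3 3.0.1 and Bowtie2 2.5.2. They also list bedtools 2.31.0, SAMtools 1.18, FastQC 0.12.1, and deepTools and Trim Galore without a version. Roles, parameters and any removal of duplicates or artefact-prone regions are not given in the sources used here. Fold, a ratio deposited by the authors, sets the pileup at a peak's summit against a background. That background was the same for all peaks of a library with a fold under 15. The deposited −log10 p-value and −log10 q-value describe the summit, and the authors' q of each peak set the minimum of 5. The deposited score was not analysed, and the authors' summit offset was used for spacing.

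Peaks on 19 autosomes were merged where they overlapped or adjoined (23395 other peaks left out). Starts came from a RefSeq promoter table for 16457 coding genes of GRCm38.p6, with both gene ends for 4208 without an entry. Start windows were 1 kb either side and the reach of a gene 100 kb. Pileups came from the fixed step between folds, of which every fold under 15 was a whole multiple (100% of peaks, tolerance 0.02 steps). Shares carry exact Clopper-Pearson 95% intervals. Depth was not known as read totals, so the precision of a single peak is given by its pileup only. The labels do not say that the replicates came from separate embryos, so their spread may be technical.

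The motif match in promoters used both strands. The members, gene lists and naming rule were chosen with earlier results of these data known. Named were the 20 strongest regions, the 15 genes with most regions, the 20 strongest start genes, 2 genes per list, 5 windows of 1 Mb and 5 regions on each side of the q minimum; a few of these are not reported here. Alternatives were other q minimums, merging gaps, lists of equal length, single peaks, each Frozen library left out, and other windows and reaches. Annotated starts only was added after seeing the data. Merging and distances were tested on simulated intervals, with Python 3.11.15, NumPy 2.4.6, pandas 2.3.3, SciPy 1.17.1 and Matplotlib 3.10.9.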

Additional observations from a re-analysis of the deposited data

Results flagged for a closer look

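Replicate 1 lay far from the other 3 libraries, by gaps of 0.883 to 0.903 of the whole range, in each of 4 measures of its single-library regions. Their number was 19596, against 1717, 3456 and 2391 in replicates 2, 3 and 4. They made up 19.1% of the regions of replicate 1 at a −log10 q of 5 or more, against 2.30%, 4.27% and 3.36%. Their median fold was 6.10, against 4.14, 4.18 and 4.36, and their median distance to a coding gene start 79.0 kb, against 22.6, 16.3 and 22.0 kb. Chance flags about 1 in 20 groups by this measure, and the 4 values come from the same regions. The number, share and fold rest on the values that the rule used.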

How the results depend on the processing

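With a −log10 q minimum of 10 there were 9351 regions, 0.802% at starts and 57.3% outside coding genes; 0.549% of replicate 1 regions within 1 kb of a start and 41.8% beyond 500 kb had no Frozen peak, the median width was 338 bp and the median fold 8.03, and 37.7% of list genes and 7755 genes in all had a region. With no minimum the values were 54.6% outside, 1.96% and 55.9% near and far, 259 bp, a fold of 5.46 and 73.8% of list genes. Merging over 1000 bp gave 0.879% at starts, 57.5% outside, 0.954% and 49.2%, 291 bp and 49.3%. Lists of equal length gave 1.24% at starts, 54.3% outside, 2.23% and 59.5%, 294 bp, a fold of 6.42 and 76.4%.

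Leaving out 1 Frozen library at a time gave 22314 to 24531 regions, 54.4 to 54.7% outside, 1.78 to 1.88% and 54.1 to 59.6% near and far, 286 to 293 bp, folds of 6.10 to 6.42 and 70.4 to 76.6% of list genes. Start windows of 0.5 and 2.5 kb gave 0.653% and 2.30% at starts, and annotated starts only, chosen after seeing the data, 0.663%. A reach of 50 kb left 48.1% of list genes with a region, and counting the nearest gene only left 38.0% of them and 5910 genes in all. The fewer regions or genes counted follow from how these settings are built; for other shifts the cause was not tested. Merging over 250 bp gave 17992 regions and 11673 genes, and single peaks 19627 and 12548. In both, the shares at starts, outside, near and far and of list genes, and the medians, stayed within the intervals of the reported values. The share near any coding gene did not, at 15.3% and 14.2% (reported interval 15.9 to 16.4%). List shares moved with the background near any coding gene, which was 9.52% at a q minimum of 10, 22.0% with lists of equal length and 20.2% without replicate 2 (16.1% as reported). Extracellular matrix went from 15.8% to 9.82%, 22.2% and 21.0%, lung mesenchyme from 15.7% to 8.99%, 21.7% and 19.1%, housekeeping from 4.49% to 2.19%, 7.92% and 6.25%, and immediate early genes from 5.27% to 2.95%, 8.40% and 7.07%. Recomputed in each setting that changes the regions and with a reach of 50 kb, a comparison added after seeing the data, the intervals of 11 to 16 of the 20 lists lay under the background and none above it; those of lung mesenchyme, mesothelium, liver products and extracellular matrix held it in each of those settings. Regions near the q minimum rest on summit pileups of 13. No paired analysis was possible because the libraries form 1 group.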
